A study of Rattus norvegicus with 20 samples.

Results

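The genes described here make or build the hyaluronan matrix around neurons, and 10 of them were followed through the rat supraoptic nucleus (SON) among 32402 genes in the tables. They are the hyaluronan-modifying gene Tnfaip6, the hyaluronan synthase gene Has3, the 4 lectican genes Acan, Bcan, Ncan and Vcan, the link protein gene Hapln1 and the tenascin genes Tnr, Tnc and Tnn. The list was chosen by the measured changes of 3 of them, Tnfaip6, Tnn and Tnc, so their values are given as a description and carry no test. The other 7 were added as partners in the same matrix and were tested with all genes. They were picked with earlier results of these data known, so their choice was not independent of the values. All 10 were found by symbol, and all 10 passed the filter of a mean normalised count of at least 10 in every fit.

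Perineuronal matrix is a gel of hyaluronan chains, which lectican proteoglycans bind at one end and tenascins cross-link at the other. Hyaluronan synthases extrude the chains at the cell surface, link proteins lock the lecticans onto them, and TSG-6, the protein of Tnfaip6, transfers heavy chains of inter-alpha-inhibitor onto hyaluronan and so stabilises it. In the SON the astrocytes around magnocellular vasopressin and oxytocin neurons withdraw during dehydration, and the space around the neurons is known to be remodelled.

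The libraries came from male Wistar Han rats of 4 groups with 5 rats each: adult (3 months) euhydrated (EH), adult dehydrated (DH), aged (18 months) EH and aged DH. The rats were intact animals with no transgene, EH rats drank freely and DH rats had no water, for a time that the labels and the study's methods give differently. RNA came from punches of the SON, so each value sums over all cells in a punch, and fewer cells of a type and less RNA per cell cannot be told apart. By the study's methods, RNA of both ages was isolated and sent for sequencing together, and the labels used here give no batch. Values are read counts divided by a size factor for each library and are called normalised counts, and they were scaled separately in the 3 tables (adult DH with adult EH, aged DH with aged EH, and aged EH with adult EH). The tables' normalised totals were 25931931 to 28689164 per library, and the reads recovered for the adult DH table were 24268398 to 28491926 per library. Avp and Oxt, the hormone genes that define this nucleus, were high in every library.

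The 3 upstream sequences are shown because they belong to the genes that chose the list. Each line is the 250 bases before the RefSeq transcription start, from the promoter table of assembly GRCr8, written 5′ to 3′ on the strand of the gene. They are chr3:56911148-56911397 on the plus strand for Tnfaip6, chr13:74919790-74920039 on the minus strand for Tnn and chr5:82476132-82476381 on the minus strand for Tnc. Capitals mark matches to the motifs searched.
Tnfaip6: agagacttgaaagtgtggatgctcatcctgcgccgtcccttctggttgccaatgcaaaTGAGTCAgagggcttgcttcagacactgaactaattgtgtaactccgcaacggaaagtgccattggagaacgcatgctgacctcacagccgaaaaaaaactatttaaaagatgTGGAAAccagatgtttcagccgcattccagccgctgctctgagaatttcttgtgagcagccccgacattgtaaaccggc
Tnn: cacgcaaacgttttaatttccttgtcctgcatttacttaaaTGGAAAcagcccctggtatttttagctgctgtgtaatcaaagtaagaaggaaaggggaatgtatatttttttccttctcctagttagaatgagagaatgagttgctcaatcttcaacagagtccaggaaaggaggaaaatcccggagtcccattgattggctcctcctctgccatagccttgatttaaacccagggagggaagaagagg
Tnc: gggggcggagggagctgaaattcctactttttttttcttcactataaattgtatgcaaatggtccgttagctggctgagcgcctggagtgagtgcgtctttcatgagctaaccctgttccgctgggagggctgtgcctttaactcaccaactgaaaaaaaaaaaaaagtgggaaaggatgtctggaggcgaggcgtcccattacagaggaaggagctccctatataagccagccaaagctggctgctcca

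The motifs were the cAMP response element TGACGTCA, its core TGACG, the AP-1 site TGACTCA, the NFAT core TGGAAA and the E-box CACGTG, each read on both strands, and the first holds the second. The Tnfaip6 sequence held an AP-1 match, in its other-strand form TGAGTCA, at bases -192 to -186 from the start. AP-1 is the dimer of Fos and Jun proteins, and 4.63% of all 33469 promoter windows of 300 bases held such a match. Tnfaip6 also held the NFAT core at -79 to -74, and Tnn held it at -209 to -204, a motif found in 22.72% of windows. The Tnc sequence held none of the 5 motifs. Among the other genes, Vcan held the NFAT core and TGACG, and Hapln1 held TGACG, which was in 21.2% of windows. Acan, Bcan, Ncan and Tnr held none of the 5. Windows were at hand for 9 of the 10 genes, and a match is a description of letters, not of binding.

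In adult rats, dehydration went with more RNA of Tnfaip6 and Tnn, and the genes of the lecticans, the link protein and Tnr did not pass the test. Tnfaip6 (ENSRNOG00000050792) read 83.7, 59.99, 85.3, 77.0 and 90.7 normalised counts in the 5 adult EH rats and 565.0, 560.5, 803.3, 800.3 and 499.8 in the 5 adult DH rats. The lowest DH rat stood over 5 times above the highest EH rat. The means were 79.3 ± 11.9 and 646 ± 145 (SD, n = 5), a log2 fold change of 2.99 (SE 0.147) on the log2(normalised count + 1) scale, or 7.97-fold.

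Tnn (ENSRNOG00000002548), the gene of tenascin-N, an extracellular glycoprotein also called tenascin-W, was at 19.2, 15.2, 18.5, 20.3 and 27.98 normalised counts in adult EH rats. The adult DH rats read 112, 108, 145, 125 and 75.7. The groups did not overlap, and the means were 20.3 ± 4.71 and 113 ± 25.5 (SD, n = 5). The log2 fold change was 2.42 (SE 0.194), or 5.35-fold.

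The third gene behind the list, Tnc (ENSRNOG00000058645), encodes tenascin-C, a glial matrix protein that modulates adhesion. Its adult EH rats ran from 988 to 1252 normalised counts with a median of 1160, and its adult DH rats from 870 to 1123 with a median of 1063. The groups overlapped, and the log2 fold change was -0.13 (95% interval -0.30 to 0.04).

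**Figure D1:**
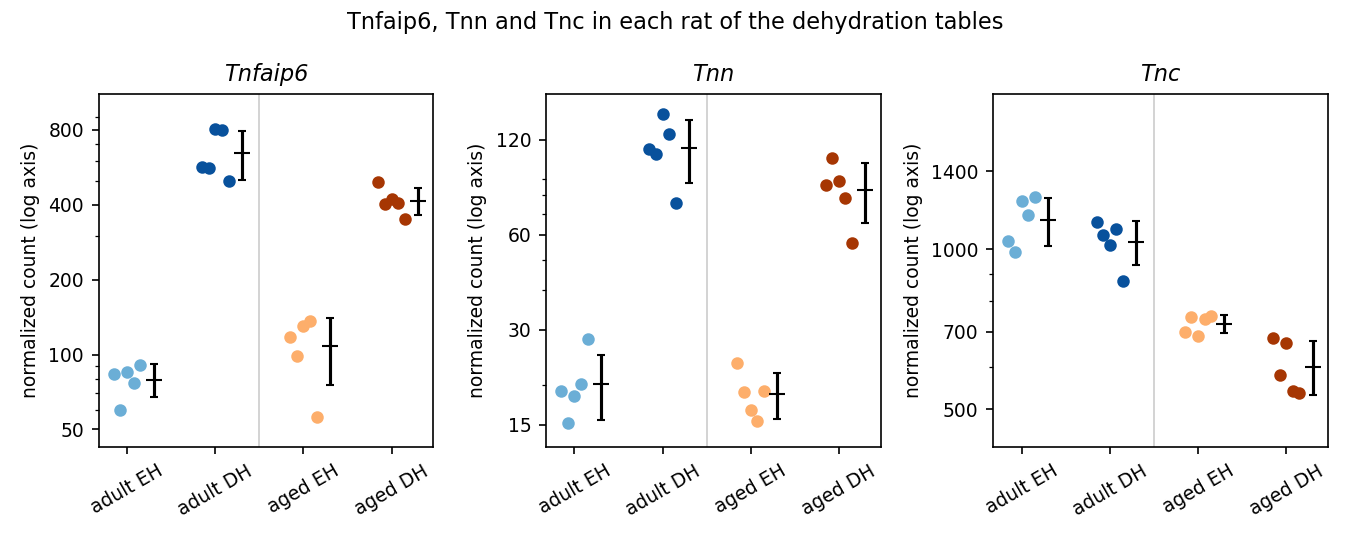
Normalised counts (log axis) of Tnfaip6, Tnn and Tnc in each rat of the adult and aged dehydration tables, 5 rats per group, with the mean and SD as black bars beside the points. Tnfaip6 and Tnn are higher in every DH rat than in every EH rat of the same age, Tnc overlaps in adult rats, and the 2 ages were scaled in separate tables.

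Among the other 7 genes in adult rats, 0 passed an adjusted p of 0.05 (limma, Benjamini-Hochberg over 15280 genes) and 1 had an unadjusted p under 0.05. Over all genes tested 12.7% passed, 7.67% as higher and 4.99% as lower. Over all 10 genes the count was 2, Tnfaip6 and Tnn, both of them genes that chose the list. Without overlap between groups stood 2 of the 10 and 0 of the 7, against 10.9% of all genes tested. edgeR and DESeq2 on the recovered reads also called none of the 7.

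Has3, which makes hyaluronan chains, read 128, 88.6, 102, 104 and 107 normalised counts in adult EH rats and 86.1, 88.1, 82.4, 85.3 and 115 in adult DH rats. Of the 5 DH rats 4 lay below all EH rats and replicate 5 lay above 4 of them. The log2 fold change was -0.21 (95% interval -0.48 to 0.05), with an adjusted p of 0.297. Without adult DH replicate 5 it was -0.30, with an adjusted p of 0.127.

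The lectican genes encode chondroitin sulfate proteoglycans of the hyaluronan gel, and none of the 4 passed the test in adult DH rats. Bcan (brevican) had means of 8062 ± 492 in EH and 8213 ± 618 in DH rats (SD, n = 5), a log2 fold change of 0.03 (95% interval -0.09 to 0.14). Ncan (neurocan) had means of 3266 ± 168 and 3290 ± 380, and its log2 fold change was 0.00 (interval -0.14 to 0.15). Vcan (versican) was at 1572 ± 173 and 1566 ± 183, with a log2 fold change of -0.01 (interval -0.18 to 0.17). The signs of these 3 values turned with the scaling or with single rats left out. Acan (aggrecan) was more uneven among rats, at 166, 199, 184, 195 and 135 in EH and 241, 160, 169, 201 and 135 in DH, a log2 fold change of 0.03 (interval -0.29 to 0.35).

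Hapln1, whose product clamps lecticans to hyaluronan, and Tnr, the neural tenascin that joins lectican ends, had values below 0 that missed the threshold in adult rats. Hapln1 was at 335 ± 21.3 in EH and 300 ± 35.2 in DH rats (SD, n = 5), a log2 fold change of -0.17 (adjusted p = 0.220). Tnr read 2384, 2333, 2327, 2241 and 2375 in EH and 2270, 2267, 2099, 2245 and 2158 in DH rats, where 3 DH rats lay above the lowest EH rat. Its log2 fold change was -0.08 (SE 0.0327, adjusted p = 0.138), and with library totals set equal the adjusted p was 0.0423.

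Markers of the neurons of this nucleus moved in the same comparison. Of 4 magnocellular genes 3 rose in adult DH rats, Avp, Caprin2 and Scg2, and the mean log2 level of that list was 14.5 to 14.8 in EH and 15.4 to 15.7 in DH rats, without overlap. In aged rats 2 of the 4 rose, Caprin2 and Scg2, and the list was at 14.8 to 15.3 and 15.4 to 15.9. In adult DH rats 1 of 5 oligodendrocyte genes (Cnp) and 1 of 7 cortex and amygdala genes (Nrgn) were lower. Higher were 1 of 5 precursor genes (Cspg4) and 1 of 5 tested meningeal genes (Slc6a13). Signs were mixed, with 1 oligodendrocyte gene and 3 cortex and amygdala genes above 0, and 1 precursor and 1 meningeal gene below 0. The mean log2 levels of these lists overlapped between groups. Leaving out 1 rat lost the calls of Slc6a13, Nrgn, Cspg4 and Avp in 7, 6, 5 and 2 of 10 fits. All 4 and Cnp were lost when the variance was not given a trend with expression, and all of these but Cspg4 with the replicate number as a term of the fit (the replicate block). Their part in the values of Tnfaip6 and Tnn was not tested.

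In aged rats Tnfaip6 and Tnn were again higher in every DH rat than in every EH rat. Tnfaip6 read 118, 98.9, 130, 136 and 55.9 normalised counts in aged EH rats and 496, 403, 421, 408 and 350 in aged DH rats. EH replicate 6 was the lowest of its group. The means were 108 ± 32.4 and 415 ± 52.5 (SD, n = 5), and the log2 fold change was 1.99 (SE 0.196), or 3.98-fold.

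Tnn in aged rats was at 23.5, 19.0, 16.7, 15.5 and 19.2 normalised counts in EH and 86.4, 105, 89.1, 78.3 and 56.5 in DH rats. The log2 fold change was 2.07 (SE 0.186), or 4.21-fold. Tnc was lower in every aged DH rat, at 682, 581, 667, 542 and 536 against 698, 747, 687, 740 and 748 in aged EH rats. That gap was narrow, since the highest DH rat was within 5 counts of the lowest EH rat. Its log2 fold change was -0.27 (SE 0.0712).

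The other 7 genes gave 0 calls in aged dehydration (limma, 1 at an unadjusted p under 0.05), against 7.29% of all 15346 genes tested, 4.05% higher and 3.25% lower. All 10 gave 3, which were Tnfaip6, Tnn and Tnc, the genes that chose the list, so this count is a description. The call of Tnc was lost in 6 of 10 fits without 1 rat, without the trend and with the replicate block. Groups without overlap were found for 3 of the 10 and 0 of the 7, against 7.05% of all genes.

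Acan came nearest among the 7. It read 125, 147, 142, 138 and 108 normalised counts in aged EH rats and 253, 146, 195, 158 and 178 in aged DH rats. Only DH replicate 2 lay within the EH range, and replicate 1 was the highest of the group. The means were 132 ± 15.7 and 186 ± 42.1 (SD, n = 5), with a log2 fold change of 0.47 (95% interval 0.17 to 0.77) and an adjusted p of 0.0571. Leaving out DH replicate 2 gave an adjusted p of 0.0355, and leaving out DH replicate 1 lowered the log2 fold change to 0.36 with an adjusted p of 0.113.

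Has3 in aged rats showed the same arrangement as in adult rats, with 4 of 5 DH rats below all EH rats. The EH rats read 114, 94.0, 114, 114 and 108 normalised counts and the DH rats 69.9, 123, 87.1, 88.5 and 79.7, with replicate 2 above all EH rats. The log2 fold change was -0.30 (95% interval -0.60 to 0.00, adjusted p = 0.238), and without DH replicate 2 it was -0.42 (adjusted p = 0.0622). These fits were chosen among the planned ones after the values had been seen.

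The remaining genes did not pass the test in aged DH rats. Bcan had a log2 fold change of 0.05 (95% interval -0.10 to 0.20), Ncan of 0.01 (interval -0.07 to 0.09) and Vcan of -0.05 (interval -0.18 to 0.09). Hapln1 was at 304 ± 28.4 and 268 ± 50.9 (log2 fold change -0.20, interval -0.46 to 0.06, adjusted p = 0.381). Tnr was at 2143 ± 129 and 1988 ± 131 (log2 fold change -0.11, interval -0.22 to 0.00, adjusted p = 0.246).

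Neurons of cortex or amygdala type lie near the punch, and their markers moved in the aged DH comparison. Of the 7 listed genes 4 were lower, with log2 fold changes of -2.49 for Neurod6, -1.92 for Slc17a7, -1.86 for Neurod2 and -0.67 for Nrgn. Across rats the mean log2 level of that list was 7.50 to 8.35 under EH against 6.62 to 7.41 under DH, without overlap. Of the list for parvalbumin and fast-spiking neurons, cells that carry aggrecan-rich nets elsewhere in the brain, 2 of 4 rose, Pvalb by 0.37 and Syt2 by 0.25. The mean log2 level of this list was 10.3 to 10.6 in EH and 10.4 to 10.8 in DH rats, and overlapped. In adult DH rats 3 of these 4 genes were below 0, with Pvalb at -0.28 and Syt2 at -0.23, and none passed. In aged dehydration leaving out 1 rat lost the calls of Syt2, Nrgn and Pvalb in 8, 6 and 5 of 10 fits, and all 3 were lost without the trend. Those of Nrgn and Pvalb were also lost with the replicate block, and that of Syt2 with equal library totals and with no filter on low values. Among glial markers the astrocyte gene Sox9 fell by 0.25, 1 of 7, the oligodendrocyte gene Mobp rose by 0.35, 1 of 5, and the precursor gene Olig1 rose by 0.21, 1 of 5. The calls of Sox9 and Olig1 were lost in 8 and 6 of 10 fits without 1 rat. The mean log2 levels of these 3 lists overlapped between groups, at 13.4 to 13.6 in EH and 13.3 to 13.5 in DH rats for astrocytes, 13.7 to 13.9 and 13.8 to 14.0 for oligodendrocytes and 10.6 to 10.8 and 10.7 to 10.8 for precursors. The part of all these markers in the values of Tnc was not tested, nor was their part in those of Acan and its partners.

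The difference between the 2 dehydration responses was fitted over all 20 rats. No gene passed among 15326 (limma, 0%, with 1522 genes at an unadjusted p under 0.05), and none of the 7 had an unadjusted p under 0.05. As a description, the aged log2 fold change less the adult one was -1.002 (SE 0.267) for Tnfaip6, -0.35 (SE 0.270) for Tnn and -0.14 (SE 0.111) for Tnc. For Acan the difference was 0.45 (95% interval -0.00 to 0.90, adjusted p = 0.507). For the 6 other genes it lay between -0.09 and 0.03.

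**Figure D2:**
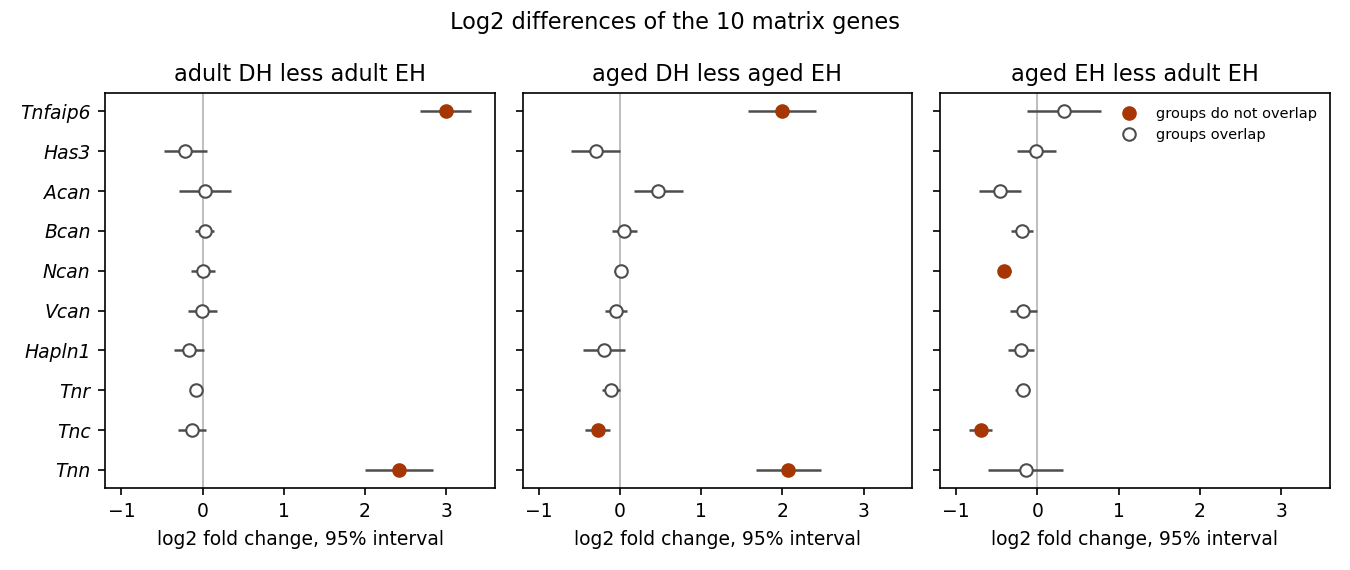
Log2 fold changes of the 10 genes with 95% intervals (limma) for adult DH less adult EH, aged DH less aged EH and aged EH less adult EH, with filled points where the 5 and 5 rats do not overlap. Tnfaip6 and Tnn stand at 2.99 and 2.42 in adult rats and at 1.99 and 2.07 in aged rats, and the 7 tested genes lie at or below 0 in the ageing panel.

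Ageing was compared between the euhydrated groups. These rats are also the controls of the dehydration comparisons, so the values of the 3 comparisons share rats. The 3 genes behind the list split here. Tnc was lower with age, Tnn overlapped at 18.8 ± 3.11 in aged and 21.1 ± 4.92 in adult rats (log2 fold change -0.14), and Tnfaip6 overlapped at 108 ± 32.3 and 82.7 ± 12.4 (log2 fold change 0.33). Leaving out 1 rat moved the value of Tnfaip6 between 0.23 and 0.55, the highest without aged EH replicate 6.

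Tnc read 699, 748, 687, 741 and 752 normalised counts in aged EH rats against 1078, 1029, 1283, 1209 and 1305 in adult EH rats. Every aged rat lay below every adult rat, and the aged rats spread less. The means were 725 ± 30.1 and 1181 ± 123 (SD, n = 5), so aged rats held 61.4% of the adult mean, a log2 fold change of -0.70 (SE 0.0656). The study's text names Tnc as an example of a gene raised by ageing, the other direction from these values. This difference was not resolved here.

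Of the 7 genes tested, 3 fell with age, Ncan, Acan and Tnr, and all 7 had a log2 fold change below 0. That sign held under both other scalings for all 7, and Has3 turned to 0.04 or 0.06 when replicate 2 of aged EH or replicate 1 of adult EH was left out. Among all 15369 genes tested 5.99% passed, 2.69% higher and 3.3% lower. The median log2 fold change of the 7 was -0.19, and that of all genes was 0.00. All 10 gave 4 calls, of which that of Tnc, a gene that chose the list, is a description. Groups without overlap were found for 2 of the 10 and 1 of the 7, against 6.38% of all genes.

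Ncan, the lectican of the developing and adult brain that astrocytes and neurons secrete, read 2538, 2514, 2580, 2519 and 2687 normalised counts in aged and 3212, 3446, 3401, 3291 and 3672 in adult EH rats. No aged rat reached the lowest adult rat. The means were 2568 ± 71.3 and 3404 ± 175 (SD, n = 5), a log2 fold change of -0.41 (SE 0.0386, adjusted p = 9.39e-05 by limma). The call held in all 10 fits that left out 1 rat and in all 8 other settings.

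Acan was at 125, 147, 142, 138 and 109 normalised counts in aged and 173, 207, 192, 204 and 141 in adult EH rats. Adult replicate 6 fell within the aged range. The log2 fold change was -0.46 (SE 0.121, adjusted p = 0.0396), and leaving out 1 rat lost the call in 8 of 10 fits. Tnr was at 2126, 1995, 2108, 2150 and 2362 in aged and 2484, 2428, 2430, 2336 and 2476 in adult EH rats, where aged replicate 6 lay above the lowest adult rat. Its log2 fold change was -0.18 (SE 0.0423, adjusted p = 0.0240), and the call was lost in 5 of 10 such fits. Both calls were also lost when the variance was not given a trend, and that of Acan with no filter on low values.

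Values for the other 4 missed the threshold. Bcan was at 7389 ± 786 in aged and 8404 ± 513 in adult rats (log2 fold change -0.19, adjusted p = 0.103), and without aged EH replicate 2 the adjusted p was 0.0341. Hapln1 was at 304 ± 28.1 and 349 ± 22.3 (log2 fold change -0.20, adjusted p = 0.148). Vcan was at 1452 ± 136 and 1638 ± 180 (log2 fold change -0.17, adjusted p = 0.231), and Has3 at 109 ± 8.59 and 110 ± 14.8 (log2 fold change -0.01, adjusted p = 0.965).

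**Figure D3:**
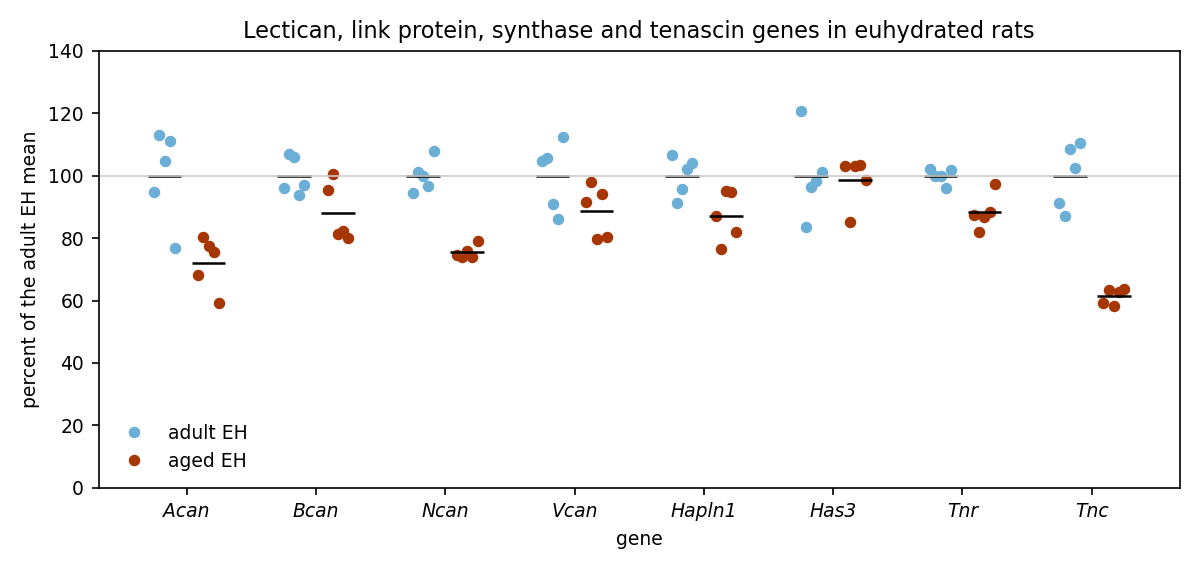
Normalised counts of 8 genes in each aged EH and adult EH rat, as a percent of the adult EH mean, with the group mean as a black line (5 rats per group). Aged Tnc rats lie between 58.2% and 63.7% and aged Ncan rats between 73.9% and 78.9%, below all adult rats, while Has3 overlaps fully.

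Markers of several cell types moved in the same ageing comparison. Oligodendrocyte genes fell in 3 of 5 (Mog, Cnp and Mobp), meningeal fibroblast genes in 3 of 5 tested (Col1a1, Col3a1 and Lum), astrocyte genes in 2 of 7 (Aqp4 and Gja1) and endothelial and mural genes in 2 of 5. The oligodendrocyte precursor gene Pdgfra fell, 1 of 5, and microglial genes rose in 2 of 5 (Cx3cr1 and P2ry12). Signs were mixed, with 3 astrocyte genes, 1 precursor gene and 1 endothelial and mural gene above 0. Magnocellular genes rose in 2 of 4, Caprin2 by 0.88 and Scg2 by 0.21. Without 1 rat the calls of Scg2 and Mobp were each lost in 8 of 10 fits and those of Pdgfra and P2ry12 in 4. Those of Scg2, Mobp, Pdgfra and Aqp4 were lost without the trend of the variance, and that of Aqp4 also with the replicate block. The mean log2 level of the astrocyte list was 13.4 to 13.6 in aged and 13.5 to 13.7 in adult rats and overlapped. That of the meningeal list was 7.74 to 8.48 and 8.86 to 9.06, and did not. Without overlap stood also the magnocellular list, at 14.8 to 15.3 in aged and 14.5 to 14.8 in adult rats, and the endothelial and mural list, at 10.6 to 10.7 and 10.8 to 10.9. That of the oligodendrocyte list was 13.7 to 13.9 and 13.8 to 14.3, and overlapped. The precursor list, at 10.6 to 10.8 and 10.7 to 10.9, and the microglial list, at 9.20 to 9.60 and 9.06 to 9.26, overlapped too. The part of these markers in the lower values of Tnc, Ncan, Acan and Tnr was not tested.

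The wider machinery of this matrix was read from lists of 82 linked genes, of which 79 were in the tables and 69 were tested. These lists too were written with earlier results of these data known. In adult dehydration 13 passed (18.8%, against 12.7% of all genes tested), 11 higher and 2 lower, with a median log2 fold change of 0.05 over the 69. In aged dehydration 6 passed (8.70%, near the 7.29% of all genes), 4 higher and 2 lower, with a median of 0.02. In ageing 10 passed (14.5%, against 5.99% of all genes), 2 higher and 8 lower, with a median of -0.06. For all genes tested these medians were -0.01, -0.00 and 0.00. The share of higher calls among all genes depends on scaling, at 60.6% in adult dehydration and 43.4% with equal library totals, and at 45.0% and 28.8% in ageing.

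Genes that make, cut and hold hyaluronan gave few calls. The synthase gene Has2 had log2 fold changes of 0.18, -0.24 and -0.41 in adult dehydration, aged dehydration and ageing, with no call, and Has1 was under the filter on low values. Hyal2, a hyaluronidase gene, rose by 0.26 in adult DH rats (adjusted p = 0.0270), a call lost in 5 of 10 fits without 1 rat. Cemip, which encodes a hyaluronan-depolymerising protein, fell by 0.48 with age (adjusted p = 0.00739). None of 8 hyaluronan-binding genes tested and none of the 3 other link protein genes passed in any of the 3 comparisons. With age Hapln2, Hapln3 and Hapln4 had log2 fold changes of 0.17, 0.32 and 0.00, against -0.20 for Hapln1.

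Chondroitin sulfate chains are built on the lectican cores by a set of polymerases and sulfotransferases. Chpf, a subunit of the chondroitin polymerase, rose in both ages. It went from 3109 ± 80.9 to 3992 ± 187 normalised counts in adult rats (log2 fold change 0.36, adjusted p = 2.00e-05) and from 3559 ± 261 to 4490 ± 163 in aged rats (0.34, adjusted p = 0.00125), without overlap in either. Its relative Chpf2 rose by 0.23 and 0.26, where the adult call was lost without the trend and with the replicate block, and the aged call without the trend and in 3 of 10 fits without 1 rat. Xylt2, which starts the chain, fell by 0.18 in adult DH rats, and this call was lost in 7 of 10 fits without 1 rat. With age the sulfotransferase genes Chst3 and Chst7 fell by 0.57 and 0.48. Of the proteoglycan genes outside the lectican family, Spock2 rose by 0.12 and Cspg4 by 0.23 in adult DH rats, Cspg5 fell by 0.11 there, and Spock1 rose by 0.16 with age. The calls of Cspg5 and Spock1 were each lost in 8 of 10 fits without 1 rat, and that of Cspg4 in 5. The call of Spock2 was lost with equal library totals and with the replicate block.

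Among proteases that cut lecticans, and their inhibitors, calls were made in all 3 comparisons. Mmp9, a gelatinase gene, rose from 24.0 ± 10.1 to 69.7 ± 20.2 normalised counts in adult DH rats (log2 fold change 1.52, adjusted p = 0.00292) and from 57.3 ± 23.7 to 146 ± 37.9 in aged DH rats (1.37, adjusted p = 0.00274), with 1 or more rats overlapping each time. Adamts15, a lectican-cleaving protease gene, rose by 0.46 in adult DH rats, from 190 ± 13.4 to 262 ± 27.6, and was at 125 ± 25.6 and 127 ± 17.3 in aged EH and DH rats. The difference between these responses did not pass the test. In ageing Adamts4, Adamts9 and Adamts15 fell by 0.53, 0.49 and 0.68. The inhibitor gene Timp3 rose by 0.15 in adult DH rats. Timp4 (0.22 in adult DH) and Mmp9 in ageing (1.17) also passed and are named after their values were seen, and 1 rat left out lost these calls in 8 and 5 of 10 fits.

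Tenascin partners are the integrins, fibronectin and syndecan that bind tenascins at the cell surface. Itgb1, the shared beta chain of many matrix receptors, rose by 0.24 in adult DH rats and fell by 0.25 with age, comparisons that share the adult EH rats. Its ageing call was lost without the trend of the variance. Fn1, which encodes fibronectin, rose by 0.41 in adult DH rats, and Itgav, an alpha chain, rose by 0.31 in aged DH rats, without overlap. Among receptors and cargo of perineuronal nets, Rtn4rl2 fell by 1.42 and Nptx2, a neuronal pentraxin gene, by 0.32 in aged DH rats, where the cortex and amygdala markers given above also fell. Sema3a, a guidance cue held in nets, fell by 0.53 with age, a call lost in 7 of 10 fits without 1 rat.

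**Figure D4:**
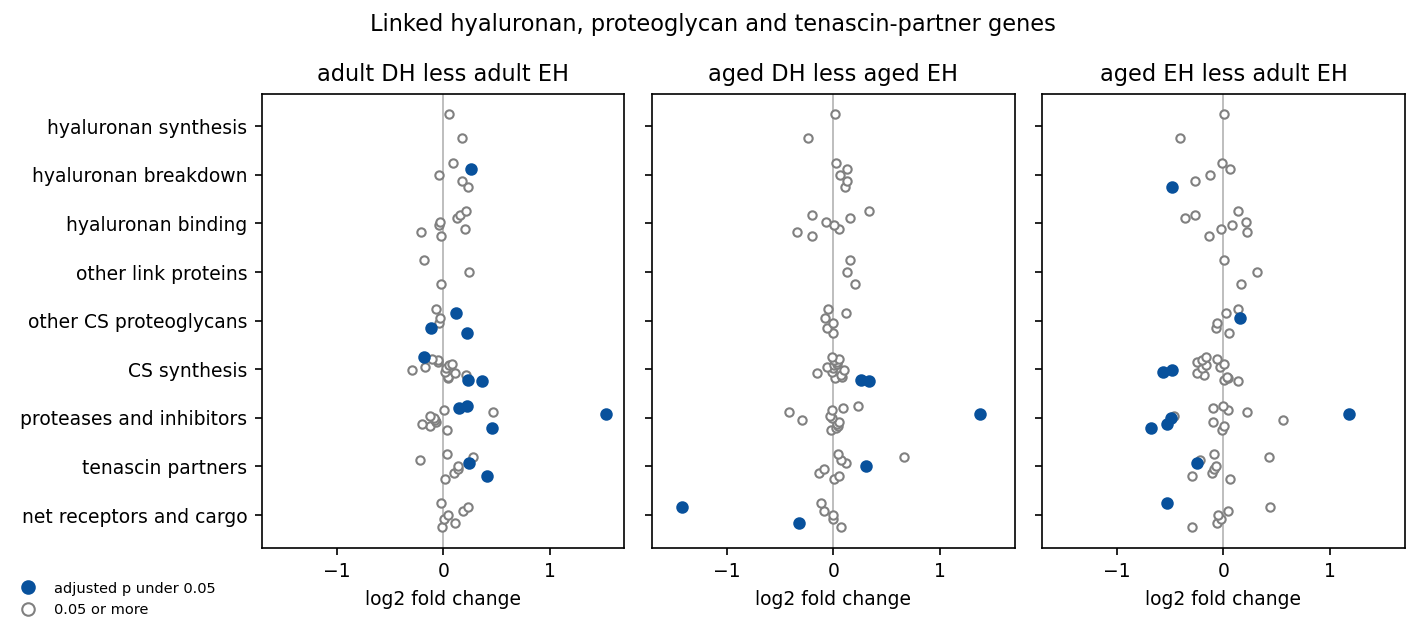
Log2 fold changes of 69 linked genes by list (CS, chondroitin sulfate) in the 3 comparisons, with filled points for an adjusted p under 0.05 (limma). Most genes lie within 0.5 of 0, Mmp9 stands at 1.52, 1.37 and 1.17, and Rtn4rl2 stands at -1.42 in aged dehydration.

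The genes with the most similar pattern were ranked by the mean Pearson r over the 2 dehydration tables, 10 rats each, where a shared EH to DH step raises r for every gene that moves. Tnfaip6 was closest to Plaur (mean r 0.989), Giot1 (0.986) and Arhgdib (0.985), and Tnn to Arhgdib (0.971), Cd63 (0.967) and Eaf1 (0.966). Tnc was closest to Atm (0.838), Pask (0.834) and Sbf2 (0.809). Tnr was closest to Fam168a (0.911), Srgap3 (0.895) and Srcin1 (0.881), and Hapln1 to Cacna1c (0.880), Grm5 (0.833) and Atxn7l1 (0.827). For Has3, Acan, Bcan, Ncan and Vcan the closest genes were Dmwd (0.816), Ccdc88b (0.748), Tlr7 (0.789), Parp11 (0.776) and Zfp865 (0.776).

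Within groups, the 10 genes were compared rat by rat with each group's mean removed. None of 45 pairs passed after adjustment by a permutation test within groups over 20 rats, for Pearson or Spearman. Has3 and Acan gave the lowest r, -0.65 (rho -0.64), and it was -0.49 without the 2 rats farthest from the median of Has3. The permutation p was 0.0100 for r and 0.00458 for rho (adjusted p = 0.112 and 0.159). Acan and Bcan gave r = 0.63 and rho = 0.58 (permutation p = 0.00509 and 0.0111, adjusted p = 0.112 and 0.159), and r = 0.47 without the 2 rats farthest from the median of Acan. Tnfaip6 and Tnn, both higher in every DH rat than in every EH rat, gave r = 0.37 and rho = 0.36 within groups (permutation adjusted p = 0.491 and 0.565). For this pair r was 0.67 without the 2 rats farthest from the median of Tnfaip6, and in single groups it ran from -0.29 in aged EH to 0.86 in adult DH rats.

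By the RefSeq order of coding genes on GRCr8, several of the 10 lie beside each other or beside link protein genes. Hapln1 and Vcan are neighbours, and Acan, Bcan and Ncan lie next to Hapln3, Hapln2 and Hapln4. Tnr and Tnn have 1 coding gene, Kiaa0040, between them. Tnn was over 4 times higher in DH rats of both ages while Tnr had log2 fold changes of -0.08 and -0.11, and Hapln2, Hapln3 and Hapln4 did not pass with age, while Acan and Ncan fell. These differences between neighbours were not tested.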

How the data were processed

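Poly(A) RNA from SON punches of 20 rats was sequenced. FastQC, STAR, featureCounts and DESeq2 are named in the submitters' processing notes. Each signal value is, as deposited by the authors, a read count divided by a DESeq2 size factor, estimated separately in each of 3 tables of 10 libraries. The deposited log2 fold change, score, p-value and adjusted p-value columns are the authors' own comparisons and were not used. All 30 per-sample columns were used.

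Groups followed the labels. Values were tested as log2(normalised count + 1) with limma 3.58.1 (R 4.3.3) with a mean-variance trend, two-sided, over genes with a mean of at least 10, with Benjamini-Hochberg adjustment and a threshold of 0.05. The difference between ages used all 20 rats, each with the value of its dehydration table. For adult dehydration 100% of values above 0 were whole reads within 0.1 read, so edgeR 4.0.16 and DESeq2 1.42.0 were run there and called 1936 and 2243 genes, against 1934 by limma. Scripts were tested on simulated data. Alternatives changed the pseudocount, filter, scaling, trend, replicate block and the rats kept. The p-values weigh group differences against the spread among rats and take each rat as independent. By the study's methods rats shared cages, and it was cages that were allotted to EH or DH. The labels used here do not give the cage, so cage was not modelled.

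The members and lists were chosen with earlier results of these data known. From the oligodendrocyte marker list 1 gene was left out and is not reported here. Linked genes were named if past the threshold, up to 3 per list and comparison by lowest p, and 3 genes most alike were taken for each member with a mean of at least 50 (1 is printed for 5 of them). Pairs among the members (100000 permutations) were added after values had been seen. Promoter sequences are from RefSeq, GRCr8. No genome of the files' build was used here. Gene levels were not compared between genes, since no transcript lengths were used.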

Additional observations from a re-analysis of the deposited data

Results flagged for a closer look

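For each of the 10 genes, the groups of 5 rats in the dehydration tables (40 groups in all) were searched for a single rat far from the others. Has3 in adult DH replicate 5 stood out at 115 normalised counts, where the nearest of the other 4 rats was at 88.1, a gap of 0.826 of the group's range against a critical value of 0.71. Chance gives about 5% of such groups.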

How the results depend on the processing

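Among 13 pairs of rats of equal replicate number the correlation of deviations ran from -0.0825 to 0.162, and 3 pairs were over 0.1. Pairs of unequal number were not compared, so whether the numbers pair the rats was not tested. With the number as a replicate block, 2, 2, 4 and 0 of the 10 genes passed in adult dehydration, aged dehydration, ageing and the age difference (without it 2, 3, 4 and 0), and 9, 6, 11 and 0 linked genes. Over all genes the block gave 987 calls in adult and 653 in aged dehydration, against 1934 and 1119.

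Without the trend of the variance, linked genes called were 8 in adult dehydration (13 with it) and 6 in ageing (10), members called in ageing were 2 (4), and all genes called were 671 in aged dehydration and 516 in ageing. Leaving out 1 rat gave 8 to 12 linked genes in adult dehydration (8 without adult EH replicate 5), 2 to 4 members in ageing (2 when aged EH replicate 4, aged EH replicate 5 or adult EH replicate 1 was left out) and 0 to 1 members in the age difference, the 1 being Tnfaip6 without aged EH replicate 6. All genes called then ran from 1463 to 1743 in adult dehydration, 678 to 1186 in aged dehydration (678 and 679 without aged DH or aged EH replicate 5) and 594 to 906 in ageing (594 and 599 without adult EH replicate 5 or aged EH replicate 4). The cause of these changes was not tested.

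Signs turned only for values that passed no test. With equal library totals the log2 fold changes of Bcan and Ncan in adult dehydration were -0.000751 and -0.0220, and that of Ncan in aged dehydration was -0.00738. With equal upper quartiles Ncan in adult dehydration was at -0.00629. With the replicate block Acan, Ncan and Vcan in adult dehydration were at -0.0462, -0.00196 and 0.0575, and Ncan in the age difference at -0.00930. Leaving out 1 rat gave ranges in adult dehydration of -0.0828 to 0.124 for Acan, -0.0107 to 0.0645 for Bcan, -0.0432 to 0.0494 for Ncan and -0.0720 to 0.0384 for Vcan. The ranges were -0.0128 to 0.0308 for Ncan in aged dehydration and -0.0765 to 0.0556 for Has3 in ageing. In the age difference they were -0.0200 to 0.0752 for Bcan, -0.0413 to 0.0513 for Ncan, -0.0855 to 0.0249 for Vcan, -0.116 to 0.0797 for Hapln1 and -0.0580 to 0.00341 for Tnr.

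Count models were not run on the ageing and aged dehydration tables or on the age difference, where whole reads were not recovered. Of 29 calls of linked genes over the 3 comparisons, 17 were kept in every setting run. Means of 10 linked genes were under the filter on low values, and these genes were not tested.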
